A study of Drosophila melanogaster with 3 samples.

Results

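The regions described here are weaker promoter peaks in ChIP-seq of the transcription factor Grain, 5767 of the 30000 peaks in the authors' pooled list. That list holds peaks and background used as input to the irreproducible discovery rate method. All its entries are called peaks here, and one need not be a site bound by Grain. The regions, called members here, were chosen by measured values. Their pooled signal lay below that of every peak in the authors' optimal list. Their summit lay within 500 bp of an annotated transcript 5' end. The pooled list held 23420 peaks below the optimal set, and the members are 24.6% of them (95% Wilson interval 24.1 to 25.2). At the same distance lay 2614 of the 6580 optimal peaks, called optimal promoter peaks here, so the members made up 68.8% of all 8381 promoter peaks in the pool. A second comparison set is the 15155 peaks below the optimal set whose summits lay more than 1000 bp from any 5' end, called weak distal peaks.

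Grain was mapped by ChIP-seq with an antibody against GFP in whole embryos of the transgenic grn-GFP line, which carries Grain with GFP at its C-terminus. There was 1 group, with 3 biological replicates, each of embryos 0 to 24 h old with males and females pooled, and chromatin was sonicated to 200 to 800 bp. No untagged or otherwise different embryos form a second group, and the control library was not analysed here. The files are ranked peak lists without read counts, so the depth behind each peak is unknown, and binding in few cells of the embryo cannot be told apart from weak binding in many.

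Grain belongs to the GATA family of zinc-finger transcription factors, which bind short sites built around the letters GATA. In the fly embryo grn is known for its part in shaping the posterior spiracles and in motor axon guidance. Fly promoters fall broadly into a housekeeping kind, which often carries the DRE (bound by DREF) or Motif 1 (bound by M1BP), and a regulated kind, which more often carries a TATA box or sites of GAGA factor. ChIP peaks at promoters can lie over a factor's own site or over open promoter DNA without one, and for this reason the letters under the summits were read beside the replicate lists.

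Both kinds of sequence occurred under members. Of the strongest members that carry a GATA hexamer, 3 are shown first, since this is the family's own site. The capitals mark the hexamer, written as it reads on the plus strand of dm6, so that a hexamer on the other strand appears with TATC in place of GATA. The stretches run 50 bp to each side of the summit, shortened where a UTR begins.
Hecw, chrX:9617788-9617888, plus strand: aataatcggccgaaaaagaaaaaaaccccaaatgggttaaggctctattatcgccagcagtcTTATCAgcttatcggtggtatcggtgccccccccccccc
CG15922, chr3R:20560281-20560325, plus strand: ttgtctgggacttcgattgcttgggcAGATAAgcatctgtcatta
CG7968, chr2L:13849298-13849398, plus strand: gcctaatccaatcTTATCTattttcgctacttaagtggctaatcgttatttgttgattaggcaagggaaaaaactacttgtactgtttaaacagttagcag
The next 3 are among the strongest members with the DRE core, in capitals, which read the same on both strands. The Ptpmeg stretch also holds a GATA hexamer of the form marked at Hecw, left in small letters.
RpS14a, chrX:7933634-7933734, plus strand: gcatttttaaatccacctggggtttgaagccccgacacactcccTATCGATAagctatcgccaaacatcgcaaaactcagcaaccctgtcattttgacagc
Saf6, chr2L:815951-815992, plus strand: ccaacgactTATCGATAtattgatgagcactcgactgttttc
Ptpmeg, chr3L:347360-347458, plus strand: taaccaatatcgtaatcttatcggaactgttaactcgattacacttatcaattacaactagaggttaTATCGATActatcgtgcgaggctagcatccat
The last 3 are among the strongest members with the Motif 1 core, in capitals.
mbt, chrX:16610570-16610670, plus strand: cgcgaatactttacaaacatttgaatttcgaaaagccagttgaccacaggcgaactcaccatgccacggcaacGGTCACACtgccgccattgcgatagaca
wnd, chr3L:19633187-19633287, plus strand: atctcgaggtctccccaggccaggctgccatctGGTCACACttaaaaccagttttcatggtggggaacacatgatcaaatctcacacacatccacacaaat
spen, chr2L:158970-159031, plus strand: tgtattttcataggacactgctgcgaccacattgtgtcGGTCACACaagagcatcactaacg
Hecw encodes a HECT-type ubiquitin ligase, RpS14a a protein of the small ribosomal subunit, Saf6 a factor of the SAGA co-activator complex, and Ptpmeg a tyrosine phosphatase. The genes mbt and wnd encode a Pak-family kinase and a MAP kinase kinase kinase, and spen an RNA-binding nuclear protein. The summit at RpS14a, which has a near-identical neighbouring copy, is uncertain, because the handling of reads that map to several places is not given in the sources used here.

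All 9 lay in the upper part of the members by pooled signal, between 104.7 and 109.4 in the authors' own units, whose scale is not stated. Ranks count from 1 for the strongest of the 30000 peaks in a list. The Hecw peak ranked 5901, 8324 and 10594 in replicates 1, 2 and 3, and the CG15922 peak 6719, 3365 and 10234. The CG7968 peak ranked 7861, 6436 and 8451. Replicate 2 gave the best rank at CG15922 and CG7968 but not at Hecw. The RpS14a peak ranked 5558, 8054 and 7243, the Ptpmeg peak 15728, 11905 and 10928, and the Saf6 peak 8894 and 3661 in replicates 1 and 2, with no overlapping peak in replicate 3. With Motif 1, the mbt peak ranked 7184, 5370 and 8777, the wnd peak 6212, 5044 and 8001, and the spen peak 11500, 12374 and 5382. None of the 9 was among the 6580 strongest peaks of all 3 replicates.

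The lowest signal of the optimal list, 109.736, sets the upper bound of the members. The 3 promoter peaks named on each side were picked for the pooled signals closest to it. Their similar signals follow from that choice, and the pool rests on the same replicates as the ranks. The 3 strongest members lay at CG13506 (signal 109.693), sced (109.675) and RpL39 (109.67), a protein of the large ribosomal subunit. The 3 optimal promoter peaks just above the bound lay at CG9410 (signal 109.736), CG13482 (109.749) and robo1 (109.8), the gene of an axon guidance receptor. In replicates 1, 2 and 3 the CG13506 peak ranked 8171, 6267 and 6253, the sced peak 7260, 7295 and 8458, and the RpL39 peak 6578, 8246 and 10164. Just above the bound, CG9410 ranked 6113, 9902 and 9836, CG13482 ranked 8976, 9041 and 5925, and robo1 ranked 5251, 12157 and 3238. The ranks of these 2 trios overlapped in replicates 1 and 3, and in replicate 2 the 3 members ranked ahead of all 3 optimal peaks. The other 9 of the 12 strongest members lay at Doa (a LAMMER-type kinase), CG13698, lncRNA:CR44830, ERp60 (a protein disulphide isomerase), SkpA (a subunit of SCF ubiquitin ligases), Ype, ctp (the dynein light chain), CG4734 and kdn (citrate synthase). Their signals were 109.463 to 109.663, and none of the 12 had a GATA hexamer within 50 bp of its summit. Below them the members reached down to a signal of 21.96, with a median of 48.7 and quartiles of 33.1 and 71.7. At the lower end, the peak at c11.1 (signal 21.988) was found in replicate 2 alone, at rank 8942, and those at lncRNA:CR46213 (21.985) and lncRNA:CR43917 (21.962) in no replicate list.

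The deposited −log10 q-value reached its cap of 4.21 in 582 members (10.1%), in 5.67% of weak distal peaks and in every optimal promoter peak. In the pooled list it closely follows the signal that chose the members, so this contrast restates the choice. The median over members was 1.43, and the member with the lowest signal, at lncRNA:CR43917, had 0.314. Nearly all members (98.9%) had the standard width of 460 bp, against 58.3% of optimal promoter peaks. Base composition at the summit was alike, with a median of 42.6% G and C in members and in optimal promoter peaks, and 41.6% in weak distal peaks.

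Down the pooled list, promoters made up a shrinking share of the peaks. In successive groups of 2500 peaks the share within 500 bp of a 5' end fell from 41.0% (39.0 to 42.9) among the strongest to 17.0% (15.5 to 18.5) among the weakest, with each group below the one before it. The GATA share at promoter summits went from 44.7% to 19.6% over the same groups, while the share in an equally wide window set 500 bp to the right, the flank, stayed between 15.8% and 18.2%. Distal summits started higher, at 56.4%, and ended at 22.3%. In the group with ranks 10001 to 12500 the hexamer was present at 25.1% (22.1 to 28.3) of promoter summits and 37.8% (35.4 to 40.3) of distal ones. At ranks 12501 to 15000 these shares were 26.2% and 34.1%. From rank 15001 on the intervals overlapped in every group, in the weakest 16.1 to 23.6 against 20.4 to 24.2. At ranks 25001 to 27500 the promoter share was the higher one, 23.3% against 22.3%.

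**Figure D1:**
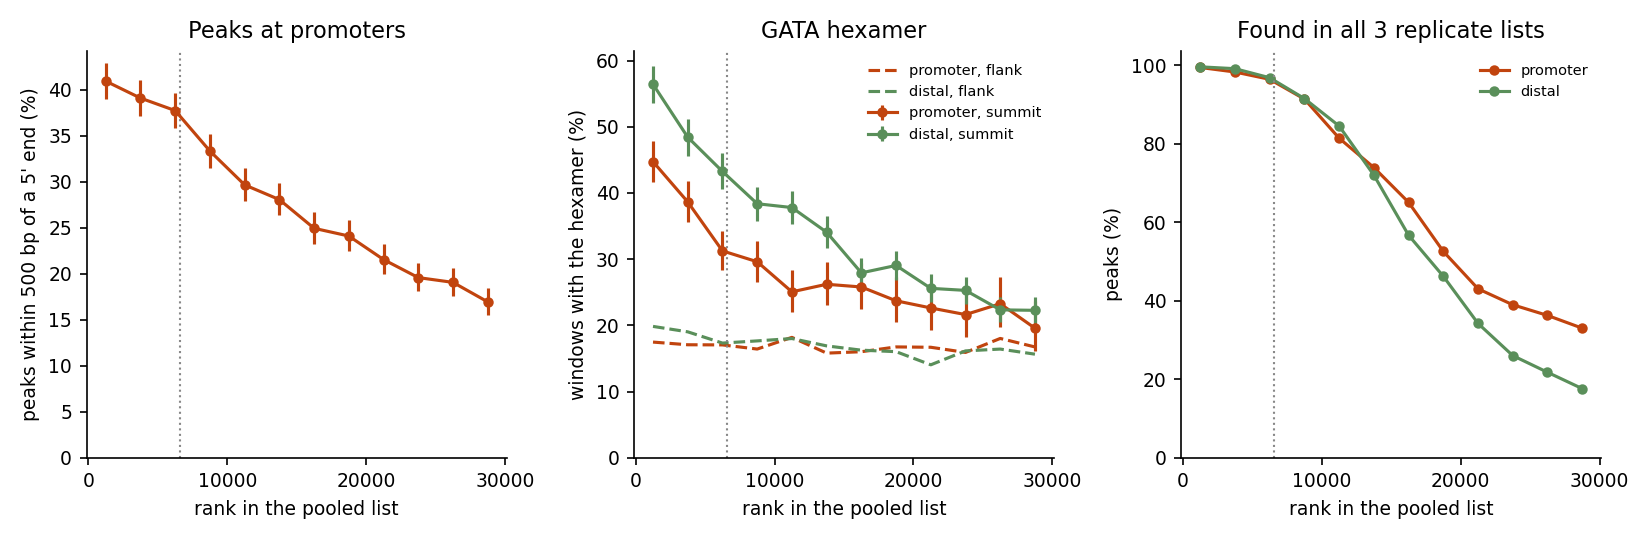
Promoter share (left), share of windows with a GATA hexamer (middle) and share of peaks found in all 3 replicate lists (right) for successive groups of 2500 peaks of the pooled list, plotted at the middle rank of each group; bars are 95% Wilson intervals and the dotted line is the end of the optimal list at rank 6580. The promoter share goes from 41.0% to 17.0%, and the promoter GATA share from 44.7% to 19.6% while its flank stays at 15.8% to 18.2%.

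Most members overlapped a peak in the single replicate lists, but seldom one of the strongest. Each replicate list holds 30000 entries of peaks and background, so being listed is not in itself a call. The overlap that unrelated intervals would give was not computed. Every replicate went into the pool, so this recurrence describes the lists and is not independent of the choice of members. A peak overlapping a member by at least 1 bp was present in 89.0% of cases in replicate 1, 78.0% in replicate 2 and 86.0% in replicate 3, a mean of 84.3% ± 5.66 (SD, n = 3). Members can overlap each other, and a replicate peak that overlaps several counts for each. Neighbouring members at CG8814, for example, share the peaks ranked 6592, 9589 and 9548 in replicates 1, 2 and 3. Replicate 2, whose peaks are narrower, was the lowest for weak distal peaks as well, at 66.0% against 81.0% and 80.9%. All 3 lists held a peak at 3660 members (63.5%, 62.2 to 64.7), against a background of 53.5% for all peaks below the optimal set, 49.4% for weak distal peaks and 98.4% for optimal promoter peaks. At 1532 members 2 lists did, at 544 members 1 list did, and at 31 members none did. The share followed pooled signal, which rests on the same replicates. With the members divided into 4 equal groups by signal, 90.6% of the top group and 36.8% of the bottom group were in all 3 lists. At ranks 10001 to 12500 of the pooled list, 81.4% of promoter peaks and 84.5% of distal peaks were in all 3 lists, and at ranks 12501 to 15000 these were 73.9% and 72.0%. In the weakest group 33.0% of promoter peaks and 17.6% of distal peaks were in all 3 lists.

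The order of the members varied widely between replicates. Where a member had a match, its median rank was 14071, 12768 and 13913 in replicates 1, 2 and 3. Of all 5767 members, 7.77%, 13.4% and 9.64% overlapped one of the 6580 strongest peaks of replicates 1, 2 and 3 (mean 10.3% ± 2.86, SD, n = 3). Replicate 2 thus had the fewest members matched and the most among its strongest. Across members found in both lists, Spearman's rho of the ranks was 0.22 for replicates 1 and 2 (4090 members), 0.29 for replicates 1 and 3 (4466) and 0.18 for replicates 2 and 3 (3956). For weak distal peaks it was 0.29, 0.35 and 0.26, and for optimal promoter peaks 0.68, 0.71 and 0.62. These are correlations across peaks, which are not independent replicates, and the members span a narrower range of signal than optimal promoter peaks. For the 3660 members in all 3 lists the gap between the best and the worst rank had a median of 9561.

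**Figure D2:**
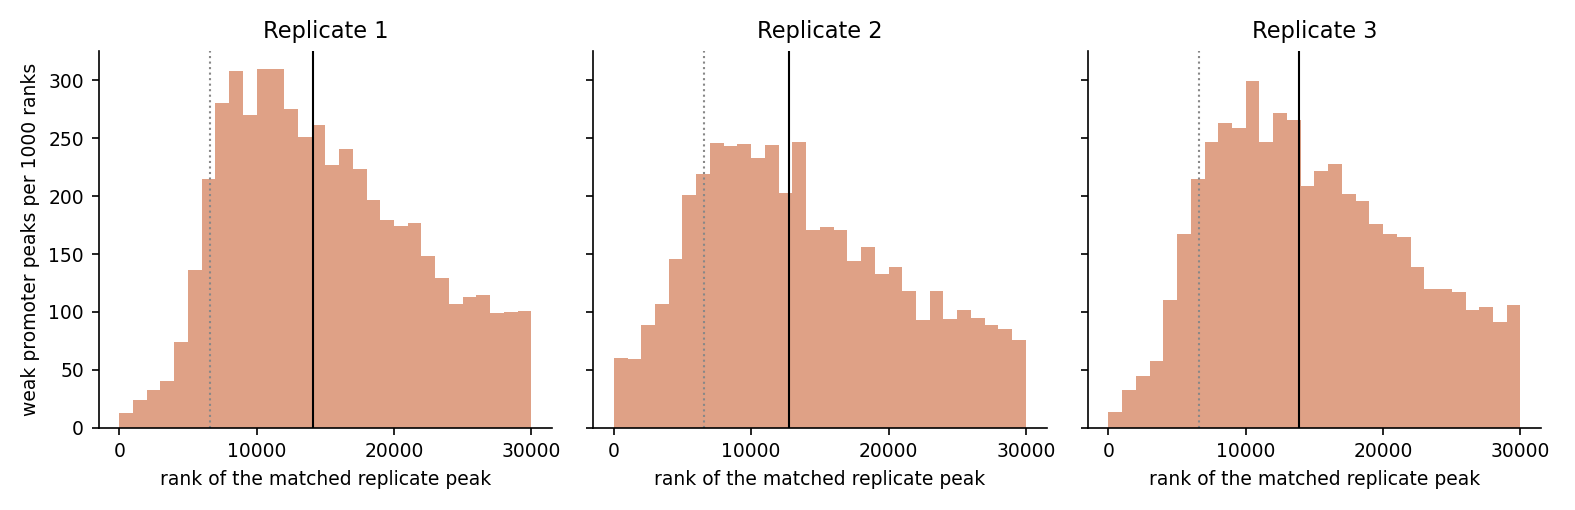
Number of weak promoter peaks per 1000 ranks (vertical axis) by the rank of the overlapping peak in each replicate list (horizontal axis); the dotted line is rank 6580 and the solid line the median. The medians are 14071, 12768 and 13913, and replicate 2 has the most members left of the dotted line.

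Members next to an optimal peak must be read apart, because a replicate peak that overlaps them can belong to the neighbour. Of the members, 808 (14.0%) overlapped an optimal interval, and in 649 of these (80.3%) the nearest optimal summit was 200 to 250 bp away, with a smallest gap of 199 bp. In this subset 99.1% were in all 3 lists, against 57.7% of the other 4959 members. All 45 members that overlapped one of the strongest peaks in each of the 3 replicates belonged to it. When a replicate summit had to lie within 100 bp and members overlapping an optimal peak were left out, none of the 4959 was among the strongest of all 3, and 1183 of them (23.9%) had a summit in all 3 lists. The members with the best mean rank by overlap were lncRNA:CR45320 (ranks 15, 14 and 34, pooled signal 23.3), CG3776 (1080, 1246 and 1432), CG9331 (1781, 2 and 2078), CG32137 (944, 1196 and 1766), Eip75B (72, 167 and 3751), which encodes a nuclear receptor of the ecdysone response, and Drat (1022, 725 and 3272). All 6 lay 202 to 212 bp from an optimal summit. So did, at 200 to 275 bp, the 4 members with the largest gaps in rank, at Cth (29501, 445 and 22269), tara (11078, 993 and 29880), Xxylt (28698, 29606 and 823) and CG42833 (29620, 11094 and 931).

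Under the stricter matching, members with strong mean ranks included those at CkIalpha, a casein kinase (chrX:12653548-12654007, ranks 8310, 4317 and 7420), CG15922 (6719, 3365 and 10234), CG12115 (5932, 6222 and 8480), CG13506 (8171, 6267 and 6253) and alphaTub84D, an alpha tubulin (chr3R:7530785-7531244, 7270, 4408 and 9083). This list was drawn after the values were seen. The nearest optimal summit was 1491 bp away at CG13506 and 5670 bp away at CkIalpha. At CkIalpha and CG15922 there was 1 GATA hexamer under the summit, at alphaTub84D there were 2, and CG12115 and CG13506 had none.

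Summits of members lay less tightly at 5' ends than those of optimal promoter peaks, within the 500 bp that the choice allowed. The median distance was 150 bp against 124 bp, and 37.0% (35.7 to 38.2) against 42.2% (40.3 to 44.1) were within 100 bp. Upstream of the 5' end lay 58.0% of members and 66.6% of optimal promoter peaks, with median positions of −36 and −68 bp along the gene. Within 500 bp of 17.0% of members were 5' ends of genes on both strands, as at divergent promoters, against 22.4% of optimal promoter peaks. By annotation, 33.2% of member summits lay between genes, 26.9% in introns, 26.8% in 5' UTRs, 6.43% in non-coding exons, 4.70% in coding sequence and 1.96% in 3' UTRs. Coding sequence held 1.49% of optimal promoter summits. The nearest 5' end belonged to a protein-coding gene at 86.1% of members, a non-coding RNA gene at 11.1% and a tRNA gene at 1.86%. The X arm held 18.6% of members (17.6 to 19.6), 12.9% of optimal promoter peaks (11.6 to 14.2), 16.6% of annotated 5' ends and 18.6% of weak distal peaks. An optimal summit lay within 1000 bp of 23.6% of members and within 5000 bp of 64.1%, with a median distance of 2975 bp.

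The GATA hexamer (A or T, then GATA, then A or G) was searched on both strands, and 1445 members, 25.1% (24.0 to 26.2), had it no more than 50 bp from the summit. This was above the members' own flank, at 16.5%, and below the background of 32.4% for all pooled peaks. The share was 39.4% in optimal promoter peaks and 29.1% in weak distal peaks. Of the windows of the same width centred on all 23581 annotated 5' ends, 15.0% held it, and of those on the members' nearest 5' ends 14.4%. All 4 forms were more frequent at member summits than in the flank, with TGATAA at 11.1% and 6.80%, AGATAA at 9.19% and 5.79%, AGATAG at 4.51% and 2.41%, and TGATAG at 3.95% and 2.83%. At least 2 copies were present at 5.12% of member summits, 2.17% of their flanks and 11.7% of optimal promoter summits. Reordered hexamers differed less between summit and flank: GTAA in place of GATA gave 20.2% at summits and 19.9% in flanks, TAGA gave 16.1% and 15.6%, and AAGT gave 24.0% and 22.9%.

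The replicates' own summits gave the same order of sets. They were taken from peaks that overlap the same pooled peaks, so the replicates read much the same sequence. Agreement between them on a motif share is therefore not independent support, here and in the replicate motif differences below. A replicate peak matched to several members also counts for each of them here. At the peaks matched to members, the hexamer was present in 26.6%, 25.6% and 25.1% of summits in replicates 1, 2 and 3 and in 17.0%, 15.7% and 16.0% of flanks. The lowest summit share was above the highest flank share, and the mean difference was 9.57 percentage points ± 0.406 (SD, n = 3). For the reordered hexamers it was 0.0718 points ± 0.296 with GTAA, −0.515 points ± 0.220 with TAGA and 1.60 points ± 0.368 with AAGT, the last above its flank in 3 of 3 replicates. Optimal promoter peaks had 37.6%, 38.0% and 38.5% at the summit, and the members were 12.3 points ± 1.21 below them. Weak distal peaks had 30.2%, 29.2% and 30.4%, and the members were 4.12 points ± 0.945 below them. Each of the 3 differences had the same sign in 3 of 3 replicates and exceeded the spread between them. The exact two-sided sign-flip permutation test gave p = 0.25 for each, the smallest that 3 replicates allow, so no comparison can pass 0.05, and the smallest adjusted p over the 84 comparisons computed was 0.32.

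**Figure D3:**
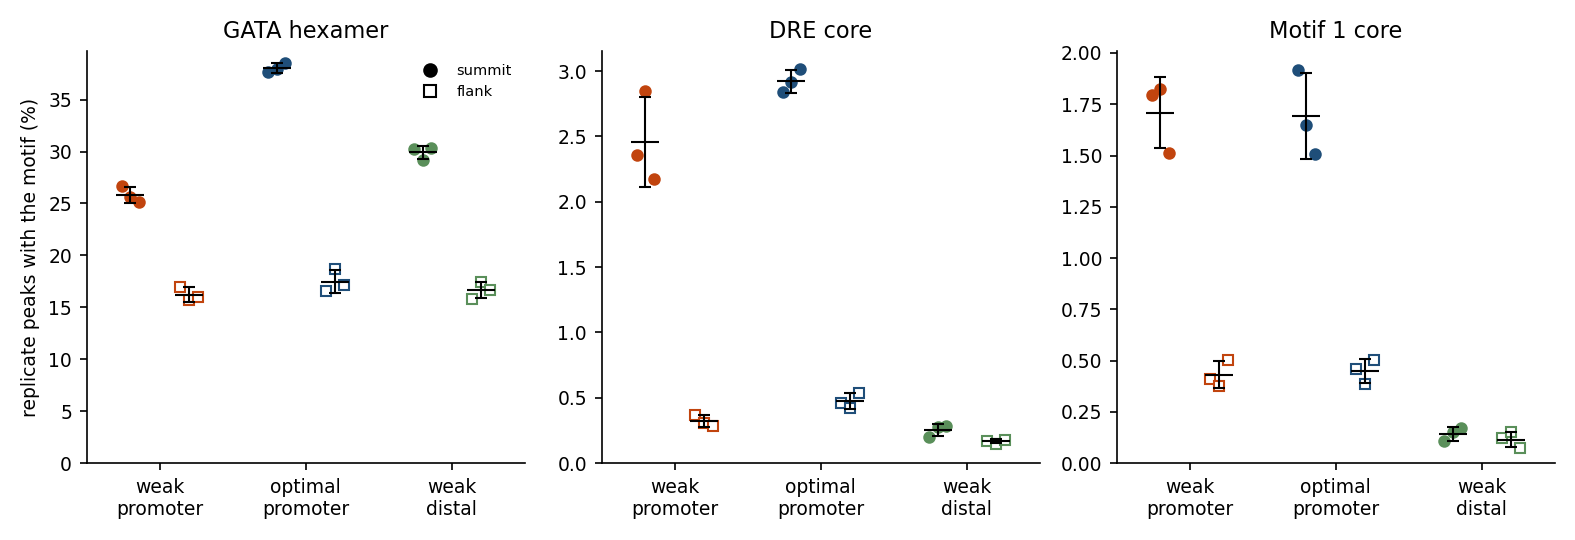
Share of replicate peaks with the GATA hexamer (left), the DRE core (middle) and the Motif 1 core (right) at the summit (filled circles) and 500 bp to the right (open squares), for the replicate peaks matched to each set; 3 points are replicates 1 to 3 from left to right, and bars are the mean ± SD. For GATA the members sit at 25.1% to 26.6%, below the optimal promoter peaks at 37.6% to 38.5%, and for the DRE and Motif 1 the weak distal peaks lie near their flank.

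Among the members, the hexamer was more frequent away from the 5' end. Its share was 21.8% (20.1 to 23.6) for summits up to 100 bp from a 5' end, 25.9% beyond that up to 250 bp and 28.1% (26.1 to 30.3) beyond 250 bp, with flanks of 17.3%, 16.2% and 15.9%. In the replicates the difference between the farthest and the nearest group was 5.98 points ± 1.93 (SD, n = 3; exact p = 0.25, two-sided). The median content of G and C was 44.6% in the nearest group and 40.6% in each of the others, and its part was not tested. Summits in 5' UTRs had 18.3% against a flank of 16.5%, summits in introns 29.4% and summits between genes 27.9%. The replicate difference between introns and 5' UTRs was 7.59 points ± 1.46, with the same exact p. Their base composition differed as well, with a median of 44.6% G and C in 5' UTRs and 40.6% in introns, and its part in the difference was not tested. Members with 5' ends on both strands had 19.9%, against 26.1% for the others, a replicate difference of −4.96 points ± 1.55 (SD, n = 3; exact p = 0.25). Members in the top of the 4 groups by signal had 29.3% and those in the bottom group 21.5%, a replicate difference of 6.55 points ± 0.873 (SD, n = 3; exact p = 0.25). At the pooled summit, members that overlapped an optimal interval had 24.4% and the others 25.2%. At the matched replicate summits, which can be the neighbour's, they had 29.9% ± 0.623 and 25.0% ± 1.06 (SD, n = 3).

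**Figure D4:**
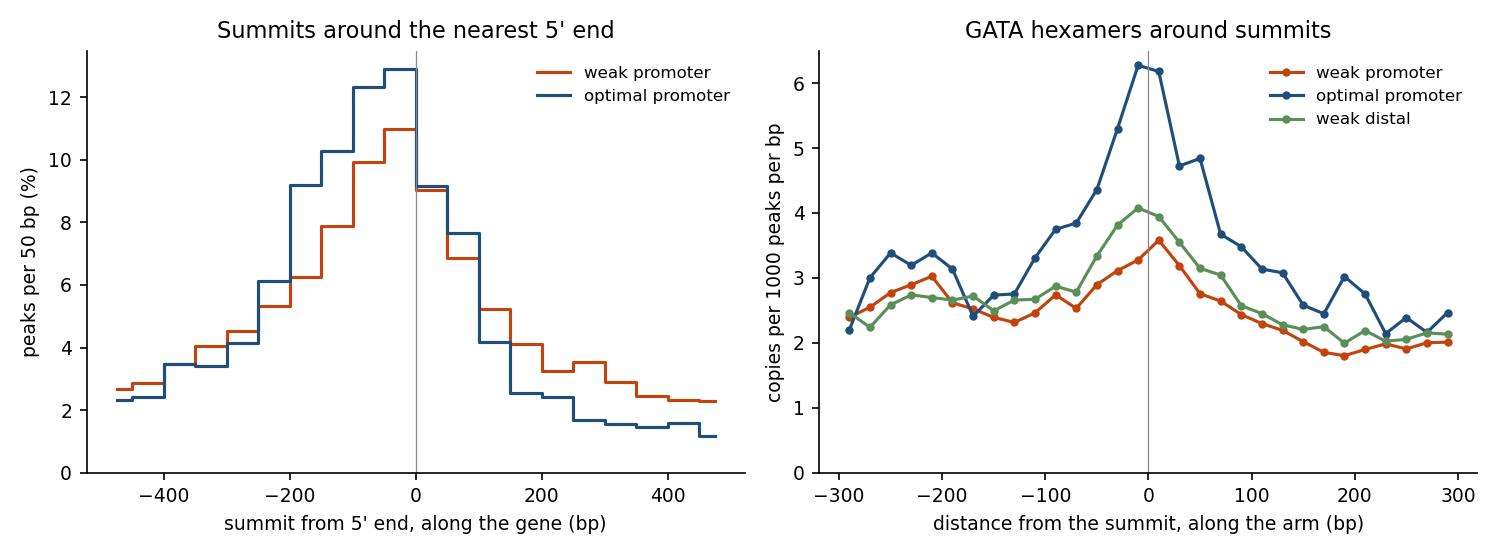
Left, percentage of peaks per 50 bp by the position of the summit relative to the nearest annotated 5' end, negative values upstream; right, copies of the GATA hexamer per 1000 peaks and bp by distance from the pooled summit along the arm. Members (58.0% upstream) spread farther into genes than optimal promoter peaks (66.6% upstream), and their GATA curve has its highest point of 3.58 copies next to the summit.

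Elements of housekeeping promoters were present at a few percent of member summits, above their flanks, and the Motif 1 difference from optimal promoter peaks was within the replicate spread at the settings used here. The DRE core TATCGATA was present in 2.31% of member summits, 0.329% of their flanks, 2.91% of optimal promoter summits and 0.257% of weak distal summits. In the replicates the members had 2.46% ± 0.345 and the optimal promoter peaks 2.92% ± 0.0868, a difference of −0.462 points ± 0.382 (SD, n = 3; exact p = 0.25). The Motif 1 core GGTCACAC was present in 1.80% of member summits and 1.80% of optimal promoter summits, with 0.416% in the members' flanks. The replicate difference between the 2 promoter sets was 0.0178 points ± 0.149 (exact p = 0.75), within the spread between replicates. Both cores were less frequent at member summits than at the members' nearest 5' ends, which had 3.99% and 4.89%, where all annotated 5' ends had 3.76% and 3.90%. Ohler motif 7, CANCNCTN with G or T at the first N and A or G at the last, was present in 5.62% of member summits, 3.19% of flanks and 7.73% of optimal promoter summits, and in 8.45% of all annotated 5' ends. Its replicate difference from the optimal promoter peaks was −1.60 points ± 0.205 (exact p = 0.25).

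The TATA box, TATAAA, was present in 12.8% of member summits, 12.1% of flanks and 15.0% of all annotated 5' ends, and in 11.0% of optimal promoter summits. In the replicates the members were 1.48 points ± 0.468 above the optimal promoter peaks, whose summits had 11.1% against a flank of 12.7%. The members had 12.6% against a flank of 12.1%. GAGAG, the core site of GAGA factor, was present in 14.4% of member summits, 12.7% of flanks and 12.6% of all 5' ends, and in 16.3% of optimal promoter summits, with a replicate difference of −2.15 points ± 0.379 between the promoter sets. Both differences had the same sign in 3 of 3 replicates (exact p = 0.25, two-sided). Zelda's CAGGTA was present in 2.32% of member summits and 2.18% of flanks.

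Few members held a GATA hexamer and a housekeeping element at once. Counting the DRE, Motif 1 and Ohler motifs 6 and 7 as such elements, 1345 members (23.3%) had a hexamer alone, 456 (7.91%) an element alone, 100 (1.73%) both, and 3866 (67.0%, 65.8 to 68.2) neither. In optimal promoter peaks 35.4% had a hexamer alone, 7.80% an element alone, 3.94% both and 52.8% neither. Members with such an element had the hexamer less often than the others in all 3 replicates, 20.1% ± 0.299 against 26.4% ± 0.876, a difference of −6.34 points ± 1.13 (SD, n = 3; exact p = 0.25). From the top to the bottom group by signal, the share of members with the DRE went from 3.05% to 1.32%, that with Motif 1 from 2.22% to 1.32% and that with Ohler motif 7 from 6.66% to 4.02%. The TATA box went from 12.6% to 14.1%.

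Of 13945 protein-coding genes, 4133 had a member within 500 bp of a 5' end, a background of 29.6% that the gene lists below are read against. No optimal promoter peak was present at 3008 of these genes. Optimal promoter peaks marked 2440 genes (17.5%). The share with a member depends on how many 5' ends a gene has: it was 23.0% for genes with 1, 44.1% for genes with 2 to 3 and 77.0% for genes with 4 or more. One member can serve several genes, so genes are not independent. The genes with the most members were SNF4Agamma (the gamma subunit of AMP-activated kinase) and sd (Scalloped, the DNA-binding partner of Yorkie in Hippo signalling), with 8 each. SNF4Agamma also had 3 optimal promoter peaks and sd had 0. With 7 members each followed CG12963, Eip63E, Mhcl, Tm1 (a tropomyosin), grh (the epidermal factor Grainyhead) and sgg (the kinase GSK3). These 8 genes have 4 to 12 distinct 5' ends.

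Among the lists of protein-coding genes, those of patterning, signalling and the cell cycle had the highest shares of genes with a member. Of 17 gap and pair-rule genes 10 had one (58.8%), and 2 had an optimal promoter peak. The anterior morphogen gene bcd, which is of neither kind but was counted in this list, had a signal of 108.0 and ranks of 9138, 9352 and 4755. The pair-rule gene odd (99.4) ranked 7153, 29560 and 5324, and eve (80.4) ranked 6950, 11873 and 9458, so that odd was placed low by replicate 2 alone. Of 24 posterior spiracle genes 13 had a member and 10 an optimal promoter peak, with spi, an EGF-type ligand, at 8503, 11506 and 6545, inv, the paralogue of engrailed, at 8470, 7760 and 11429, and trh, the tracheal regulator, at 6068, 25571 and 8695. Of 11 JAK/STAT pathway genes 6 had a member and 1 an optimal promoter peak. Those named are ken (9859, 7604 and 10102), Ptp61F, a phosphatase (17087, 12311 and 9833), and the feedback inhibitor Socs36E (9302, 5068 and 9269). Of 33 cell cycle genes 17 had a member (51.5%) and 6 an optimal promoter peak. E2f1, the S-phase transcription factor, had ranks of 11426, 11815 and 4588. The APC/C activator fzy ranked 12832, 8723 and 10833, and Bub3, of the spindle checkpoint, ranked 4790 and 12969 in replicates 2 and 3 and was absent in replicate 1. Of 8 Hox genes 4 had a member and 2 an optimal promoter peak, with Ubx at 18885, 17465 and 7407, Antp at 12881, 20313 and 10167, and abd-A at 23982 and 20802 in replicates 1 and 3 alone. The median number of 5' ends is 2 for the Hox genes and 1 for the other lists here, and 44.1% of genes with 2 to 3 had a member. Several of these lists are short, and their counts carry no test.

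Most housekeeping lists were near the 29.6% background of all protein-coding genes or below it. Their median number of 5' ends is 1, and genes with 1 had a share of 23.0%. Some of these lists were above that share and some below it. A member was present at 31 of 93 cytosolic ribosomal protein genes (33.3%), 21 of 73 mitochondrial ribosomal protein genes (28.8%), 11 of 44 translation initiation factor genes, 8 of 33 aminoacyl-tRNA synthetase genes, 10 of 48 proteasome subunit genes and 10 of 40 complex I genes. So it was at 6 of 30 RNA polymerase subunit genes, 5 of 25 Mediator genes, 7 of 20 Atg genes and 5 of 21 nucleoporin genes. The cytosolic ribosomal protein genes differed in their optimal promoter peaks, at 46 genes (49.5%). Among 33 genes for subunits of the vacuolar proton pump, 13 had a member (39.4%), with Vha44 at ranks 10341, 3177 and 6656, Vha16-1 at 7333, 3210 and 23586, and Vha55 at 4153 and 3395 in replicates 2 and 3 and absent in replicate 1. Of 19 heat shock protein genes 2 had a member, Hsp22 and Hsp110. Genes known for roles mostly in later stages or in adults had few members: 4 of 179 chemoreceptor genes (2.23%), 13 of 110 cuticle protein genes (11.8%), 3 of 47 accessory gland and seminal protein genes (6.38%) and 0 of 6 chorion and yolk protein genes. These small counts move with the window: at 250 and 1000 bp they were 2 and 12 for chemoreceptor, 6 and 25 for cuticle protein and 1 and 6 for accessory gland and seminal protein genes. The background moves as well, with 3176 and 5079 of all 13945 protein-coding genes at these windows.

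For genes of any kind the background was 27.8%. Among tRNA genes, 131 of 290 (45.2%) had a member and 37 an optimal promoter peak. These 131 genes rest on 117 summits, since tRNA genes lie in clusters, and near-identical copies make single assignments uncertain. With a window of 250 bp, 82 tRNA genes had a member, and so did 3176 of the 13945 protein-coding genes, against 4133 at 500 bp. At the strongest, tRNA:Leu-CAG-1-1, the signal was 109.3 with ranks of 14541, 6088 and 5567, and tRNA:Thr-AGT-1-2 (13246, 4314 and 6012) and tRNA:Val-TAC-1-1 (5268, 3824 and 9688) followed. Where a tRNA gene was nearest, 34.6% of 107 members had the GATA hexamer, and in the replicates these were 5.42 points ± 2.68 above members nearest to protein-coding genes (SD, n = 3; exact p = 0.25). Their median content of G and C was 37.6% against 42.6%, and its part was not tested. The B box core of tRNA genes, GGTTCGA, was present in 0.971% of all member summits and 1.01% of flanks. Of 32 snRNA genes 11 had a member, of 269 snoRNA genes 43, of 260 microRNA hairpins 40, of 3261 other non-coding RNA genes 705 (21.6%) and of 268 pseudogenes 21 (7.84%).

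**Figure D5:**
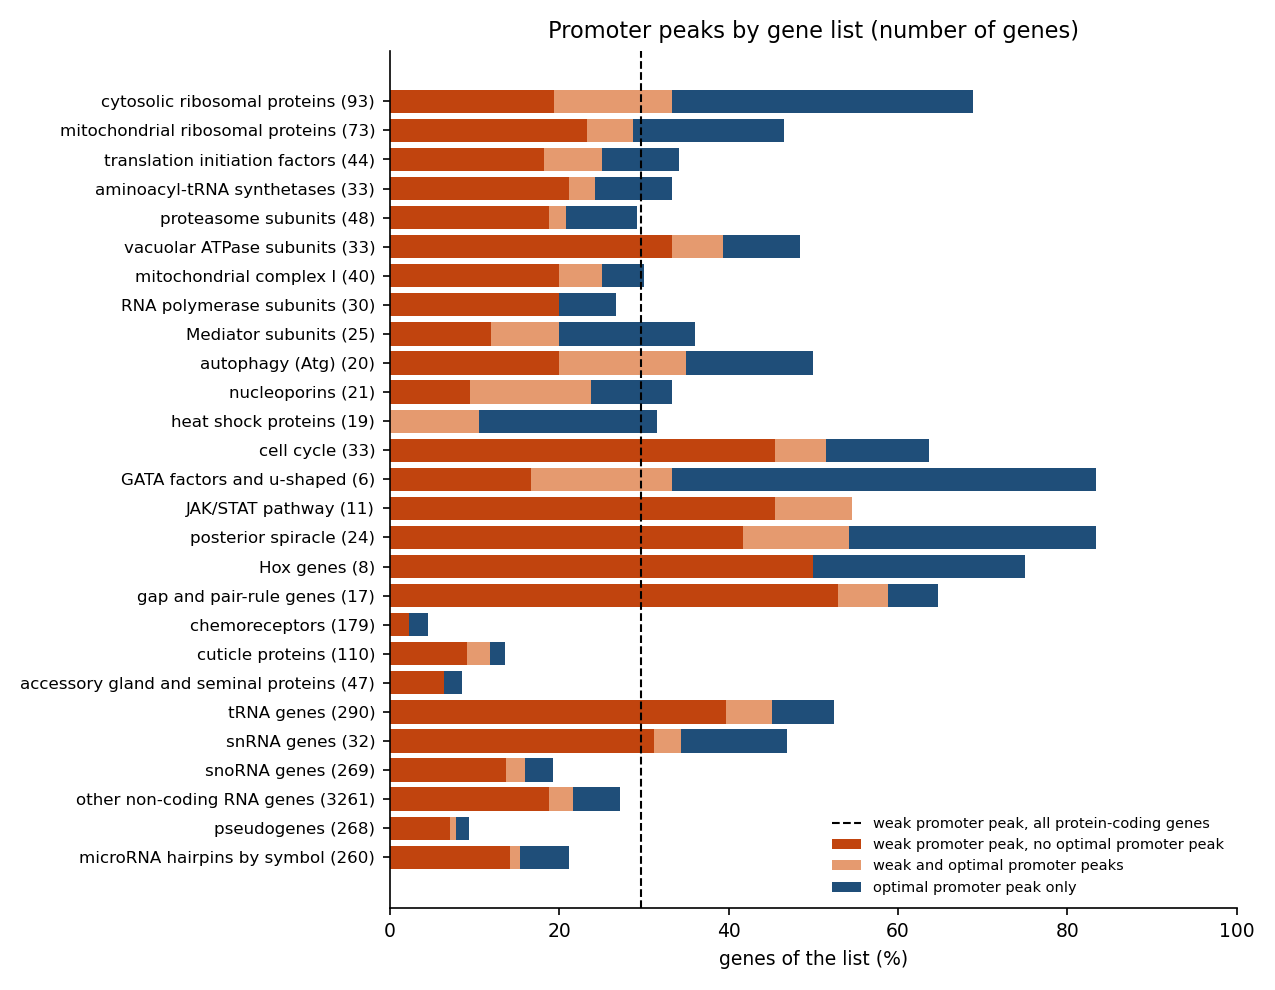
Percentage of the genes of each list with a peak (number of genes in brackets) that have a weak promoter peak alone, with weak and optimal promoter peaks, or with an optimal promoter peak alone; the dashed line is the 29.6% of all protein-coding genes with a weak promoter peak. Gap and pair-rule genes (58.8%) lie right of the line and chemoreceptor genes (2.23%) left of it, and the cytosolic ribosomal proteins have the long dark bar of optimal promoter peaks.

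The gene of the tagged protein was itself among the genes with a member. The grn member (chr3R:8180322-8182209) had its summit 98 bp from a 5' end of grn, a pooled signal of 48.2 and ranks of 10973, 5889 and 17995 in replicates 1, 2 and 3. Its interval also holds an optimal summit 619 bp away, outside the 500 bp window of any grn 5' end, so these ranks can be those of a neighbouring summit. It held no GATA hexamer within 50 bp of its own summit. Of the other 4 GATA factor genes, srp, which directs blood and fat body formation, had a member at chr3R:15993849-15994308 with a signal of 26.7, absent in replicate 1 and at ranks 20407 and 23238 in replicates 2 and 3. It also had 2 optimal promoter peaks. The genes pnr and GATAe had 1 and 2 optimal promoter peaks and no member, GATAd had neither, and ush, whose product binds GATA factors, had 3 optimal promoter peaks and no member.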

How the data were processed

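Grain ChIP-seq was given as narrowPeak lists for 3 replicates, for their pool and for the optimal set. Per the file descriptions deposited with them, the replicate and pooled lists are peaks and background used as input to the irreproducible discovery rate method. The deposited signal value of each peak (scale not stated) and the deposited −log10 q-value, capped in each list, are the authors' own, as is the summit offset in bp. No peak caller or aligner is named in those descriptions. Depth is unknown.

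Signals were used only to rank peaks within a list. Members are pooled dm6 peaks with a signal below 109.736 and a summit within 500 bp of a transcript 5' end (Ensembl release 115, BDGP6, transposable elements left out). Sequence is from RefSeq's release 6 genome (dm6), whose arms hold all peaks. Replicate peaks were matched by an overlap of at least 1 bp, taking the nearest summit. The 15 motifs were counted on both strands within 50 bp of the summit and of a point 500 bp to the right. Besides those spelled out in the report, they were Ohler motif 6, the initiator (TCANTN with G or T, then C or T; 24.7% of member summits, 21.9% of flanks, 33.8% of all 5' ends), the downstream promoter element (NGNCGTG with A or G, then A or T; 1.99%, 1.77% and 3.21%) and the E box CAGCTG (5.90%, 4.92% and 7.83%). The DRE core holds GATA after a C, which the hexamer search does not count, and copies of different motifs may overlap elsewhere. Ohler motif 6 was present in 0.850% of member summits, 0.329% of flanks and 1.28% of all 5' ends.

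Replicates were compared with the exact two-sided sign-flip permutation test over 3 values, and p-values were adjusted with the Benjamini-Hochberg method. Peaks of one list are not independent, and Wilson intervals cover counting error only. Matching and counting were tested on simulated data. Python 3.11.15, numpy 2.4.6, pandas 2.3.3 and scipy 1.17.1 were used.

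The members, the gene lists and the tests were chosen with earlier results of these data known. Named are the 12 strongest members, 3 peaks on each side of the bound, the 3 lowest, the 6 best and 4 most variable by replicate rank, the genes with most members, up to 3 genes of a list, and 3 of the strongest members per motif whose core lies outside UTRs and withheld sequence. Sequences for TATA and GAGA were left out, since their shares lay near the flank. The microRNA list matched no gene by biotype and was rebuilt by symbol after the annotation was seen. Of the 105 symbols typed for 6 lists, 99 matched. Those without a match were Pcna (cell cycle), cut, sal, Cad96C and Gef64C (posterior spiracle) and h (gap and pair-rule), and they add no gene to their lists. One member that the rule names is not reported here.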

Additional observations from a re-analysis of the deposited data

How the results depend on the processing

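The members' number and shares depend on the window and on matching. Counting only as many peaks below the bound as the optimal set holds gave 2093 members, a promoter share of 31.8% and a GATA share of 28.1%. A window of 250 bp gave a promoter share of 17.0% and a GATA share of 23.7%, a window of 1000 bp 35.3% and 27.4%, and protein-coding 5' ends alone a promoter share of 21.6%. Within 25 and 100 bp of the summit the GATA share was 14.1% and 40.8%.

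The mean share found in a replicate was 75.2% with 50% overlap of both peaks, 61.0% with summits within 100 bp, and 60.6% when members overlapping an optimal peak were also left out, a choice made after seeing the data. The share among the strongest peaks was 5.53% with summits within 100 bp, 2.49% and 40.1% with the 3290 and 13160 strongest peaks of each list, and 5.90% and 4.64% without members overlapping an optimal peak, by overlap and by summit. Without each replicate in turn the first share was 82.0% to 87.5% and the second 8.70% to 11.5%.

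The GATA differences from flank, optimal promoter and weak distal peaks kept their sign under every alternative run. The difference from weak distal peaks was −8.80 points with the next 6580 peaks, −1.90 at 1000 bp and −1.74 within 25 bp of the summit. The DRE difference from optimal promoter peaks was 0.318 points with the next 6580 peaks alone. The Motif 1 difference was 0.441 points with the next 6580 peaks, 0.161 and 0.185 within 25 and 100 bp, and 0.147 with the strongest overlapping replicate peak, each with 1 sign in 3 of 3 replicates (exact p = 0.25). It was −0.0110 and −0.0441 points at 250 and 1000 bp, and −0.0596 to 0.0893 with each replicate left out in turn. The dm3 lists, with 78.3% of peaks below the bound found per replicate, were close to the 78.4% of dm6. The causes were not tested. No paired analysis between groups was possible because there is 1 group, and differences between sets were taken within each replicate. Without read counts, the limit that depth sets is unknown.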

Other observations

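The GATA hexamers around member summits were not placed evenly on both sides. In a window 50 bp to each side of a point 230 bp to the left of the pooled summit, towards lower coordinates, 21.9% of members had a hexamer, against 16.1% in the window 230 bp to the right. The same was seen at optimal promoter peaks, with 25.1% and 19.4%, and at weak distal peaks, with 20.7% and 17.4%. At the replicates' own summits of members the left window had 21.1% ± 0.622 and the right 16.8% ± 0.538 (SD, n = 3), higher on the left in 3 of 3 replicates by 4.26 points ± 0.308. The 4407 members with no optimal summit within 1000 bp had 18.9% and 15.8%. Reordered hexamers at members had 20.6% and 19.6%, 15.6% and 16.4%, and 25.5% and 25.2%, and the content of G and C was 41.9% and 42.2%. At the replicates' summits the hexamer reordered to GTAA leaned the same way, with 21.5% ± 0.904 and 19.7% ± 0.775, by 1.80 points ± 0.752 in 3 of 3 replicates, and those reordered to TAGA and AAGT by 0.138 points ± 0.592 and 0.471 points ± 0.207. Left and right here are those of the genome and not of the gene. The windows and the offset were chosen after the profile was seen.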
